A study of Canis lupus familiaris with 23 samples.

Results

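ABCB1 (also called MDR1) encodes P-glycoprotein, a pump in the plasma membrane that uses ATP to export lipophilic compounds from the cell. It is known for lowering the intracellular level of several anticancer drugs, doxorubicin among them, and in dogs loss-of-function alleles of the gene cause sensitivity to such drugs. In normal organs the protein sits in the bile canalicular membrane of hepatocytes, in the brush border of the proximal tubule of the kidney, in some lymphocytes and in capillary endothelium of the brain. It belongs to the ATP-binding cassette (ABC) family, whose other members export bile salts, phospholipids, sterols, conjugated drugs and metals, and a few of which are soluble proteins.

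The canine array carried 2 probe sets annotated to ABCB1, 1582410_at and 1602868_at, of 23836 probe sets tested, which makes it 1 of 6540 genes named. The probe sets were taken by the platform's gene symbol, and the gene itself was picked with earlier results of these data known. The same annotation gave 30 further probe sets for 19 other symbols that begin with ABC, which served as background. Expression was measured in 23 samples on Affymetrix canine genome arrays, in 2 canine osteosarcoma cell lines, 15 primary osteosarcomas from pet dogs taken before any chemotherapy, and 2 samples each of normal liver, lymph node and kidney from research colony dogs. Normal bone was not analysed here, the labels do not say which cell line is which, and they do not say which organs came from one dog. The p-values therefore measure the spread between these samples. Values are the log2 levels that the authors made by robust multi-array averaging (RMA), on which a difference of 1 is a doubling. They ran from 2.52 to 14.2 over all probe sets, and the 10th percentile of the single arrays was 3.38 to 3.54. RMA compresses differences among dim probe sets and gives no call of presence or absence.

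The labels were checked against marker genes as mean levels over the measured members of each list. Hepatocyte markers (7 of 8 measured) averaged 9.55 to 10.1 in liver, against at most 5.76 in the other normal organs. Kidney epithelial markers (6 of 8) averaged 8.36 to 8.56 in kidney, and lymphocyte markers (4 of 10, all of T cells) averaged 7.40 to 8.58 in lymph node. Osteoblast markers (7 of 9) averaged 7.40 to 8.09 in the cell lines and 8.10 to 10.05 in the tumors, against at most 7.49 in the organs. The lower cell line thus lay below the highest organ sample, a kidney, and these markers did not separate it from the organs. On 10 arrays (7 tumors and the first sample of each organ) the 3′ probe sets of actin and Gapdh exceeded the 5′ ones by 3.15 to 6.45, against -0.32 to 0.85 on the other 13, so that signal from the 5′ part of transcripts was low there. ABCB1 values are given beside this split below.

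ABCB1 was low in every tumor and high in liver and kidney. On 1582410_at, the brighter probe set, the cell lines had levels of 6.88 and 4.04. The 15 tumors ran from 2.88 through a median of 3.32 to 4.20, with a mean of 3.42 ± 0.46 (SD, n = 15). The livers had 9.88 and 10.03, the lymph nodes 6.43 and 5.88, and the kidneys 8.64 and 7.20. The tumors and the organs did not overlap, and a gap of 1.68 separated the highest tumor from the lower lymph node. Of the 15 tumors 12 had a level under 4, and 9 lay below the 10th percentile of their own array. In a whole-tissue sample fewer cells that carry a transcript and less of it per cell cannot be told apart.

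**Figure D1:**
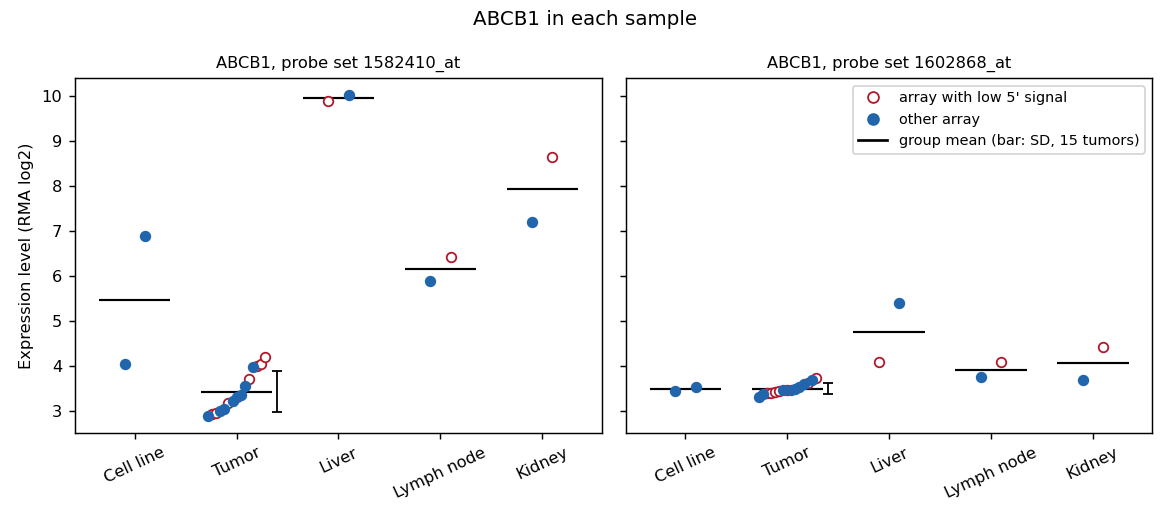
ABCB1 expression level (RMA log2, vertical axis) in each of the 23 samples by group, for its 2 probe sets; open circles are arrays with low 5′ signal, horizontal lines are group means and the bar beside the tumors is the SD over 15. On 1582410_at all 15 tumors lie at 4.20 or lower and all organ samples at 5.88 or higher, while on 1602868_at the highest level is 5.40 in a liver.

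In order of mean level on 1582410_at the groups ran from tumors (3.42) through cell lines (5.46 ± 2.01), lymph nodes (6.15 ± 0.39) and kidneys (7.92 ± 1.01) to livers (9.95 ± 0.11; SD, n = 2 for each of these). The tumors were compared with each organ in a limma model of all 23 samples, with Benjamini-Hochberg adjustment over all probe sets and a threshold of 0.01. ABCB1 was lower in the tumors than in liver by -6.53 ± 0.48 on the log2 scale (difference ± SE, adjusted p = 1.39e-09), a 92.3-fold difference, in a comparison in which 5.86% of all probe sets were called lower. Against kidney the difference was -4.49 ± 0.48 (22.5-fold, adjusted p = 7.91e-07), where 5.26% of probe sets were called lower. Against lymph node it was -2.73 ± 0.48 (6.62-fold, adjusted p = 0.000801), where 2.91% were called lower. With most tumors near the floor of the RMA scale, these folds hold for that scale only. Every tumor lay below both samples of each organ, which held for 7.73% of all probe sets against liver, 6.62% against kidney and 5.89% against lymph node. The lymph node contrast lost its call when either lymph node was left out, with a difference of -2.45 and an adjusted p of 0.0423 without the first and of -3.00 and 0.0153 without the second.

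Against the 6 organ samples as 1 group, ABCB1 had the 15th lowest difference of the 23836 probe sets, a position that 0.0629% of them reached. All 15 tumors lay below all 6 organ samples, as did those of 0.445% of the probe sets, and 2.93% were called lower. The 95% confidence interval of the difference ran from -5.54 to -3.63. That fit took the 6 organ samples as independent, although each organ gave 2 of them. The pooled organs hide a spread of their own. ABCB1 was higher in liver than in lymph node by 3.80 ± 0.64 (adjusted p = 0.000293), in a comparison in which 3.96% of probe sets were called higher. Liver exceeded kidney by 2.03 ± 0.64 (95% confidence interval 0.69 to 3.38, adjusted p = 0.0747) and lymph node differed from kidney by -1.77 ± 0.64 (-3.11 to -0.43, adjusted p = 0.0985), so that neither pair of neighbours in the order passed the threshold. Without 1 sample liver minus kidney ran from 1.32 to 2.75 and lymph node minus kidney from -2.48 to -1.05, none past the threshold. Those comparisons had 3.81% and 5.66% of all probe sets called in either direction.

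ABCB1 levels of the tumors overlapped between the arrays with low 5′ signal and the others. Tumors on arrays with low 5′ signal averaged 3.58 ± 0.54 (SD, n = 7, range 2.93 to 4.20), and the others averaged 3.29 ± 0.35 (SD, n = 8, range 2.88 to 3.97). That difference of 0.28 gave p = 0.239 in a two-sided exact permutation test. Fitted on the arrays with low 5′ signal alone, the tumors differed by -6.30 from liver, -2.85 from lymph node and -5.06 from kidney, and fitted on the others alone by -6.74, -2.58 and -3.91. Each of these fits held 1 sample of each organ, which was assumed to vary like the other groups. The difference from lymph node had an adjusted p of 0.0322 and 0.0959, and that from kidney on the others 0.0105. The kidney samples differed by 1.43, with the higher value on the array with low 5′ signal.

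ABCB1 levels varied moderately among the tumors. Their SD on 1582410_at was larger than that of 71.1% of all probe sets, whose median SD over the tumors was 0.26. Tumor 10 had the highest level at 4.20, followed by tumor 8 (4.04), tumor 12 (4.01) and tumor 5 (3.97), and tumor 9 had the lowest at 2.88. The highest tumors were still in the range where RMA compresses differences. Endothelial markers (5 of 8 measured), for cells that carry the pump in some organs, averaged 6.56 to 8.50 in the tumors, against 7.18 in the livers, 6.35 to 7.40 in the lymph nodes and 7.25 to 7.52 in the kidneys, and their part in the ABCB1 levels was not tested.

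The second probe set, 1602868_at, was dim in all groups. It had 3.53 and 3.45 in the cell lines and 3.31 to 3.74 in the tumors, with a tumor median of 3.46. The livers had 4.10 and 5.40, the lymph nodes 4.08 and 3.75, and the kidneys 4.43 and 3.68. The direction was that of the brighter probe set and the differences were smaller, with 13 of the 15 tumors below the lowest organ sample. The tumors were lower than the 6 organ samples by -0.75 ± 0.16 (adjusted p = 0.00367) and lower than liver by -1.26 ± 0.21 (adjusted p = 0.00015). Their differences from kidney (-0.56 ± 0.21, adjusted p = 0.0927) and from lymph node (-0.42 ± 0.21, adjusted p = 0.307) did not pass. Without 1 sample these ran from -0.94 to -0.19 for kidney, passing in 2 of 23 fits, each without 1 liver (adjusted p = 0.00985), and from -0.59 to -0.26 for lymph node. The call against the 6 organ samples was kept in 6 of 9 alternatives. It was lost, among others, with organ as a random block (adjusted p = 0.0192), and also without the first kidney (adjusted p = 0.0125). The call against liver was lost without the second liver, where the difference was -0.60. Across the 23 samples the probe sets had a Pearson r of 0.82, as a description of samples that share their arrays, and across the 15 tumors it was 0.48.

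The cell lines gave unlike values. On 1582410_at cell line 1 had a level of 6.88, above every tumor and above both lymph nodes, whereas cell line 2 had 4.04, inside the range of the tumors and below tumors 8 and 10. The gap of 2.85 between the lines was matched or exceeded by 0.361% of all probe sets, whose median gap was 0.27. As a group the lines were higher than the tumors by 2.03 ± 0.48 (4.1-fold, adjusted p = 0.00807), where 3.77% of probe sets were called higher. That call was kept in only 10 of 23 fits without 1 sample and in 5 of 8 alternatives. Without cell line 1 the difference was 0.61, the smallest of the fits without 1 sample. The cell lines were lower than liver by -4.49 ± 0.64 (adjusted p = 3.49e-05, with 5.74% of probe sets called lower). Their difference from kidney was -2.46 ± 0.64 (-3.80 to -1.12, adjusted p = 0.0112) and from lymph node -0.69 ± 0.64 (-2.03 to 0.65, adjusted p = 0.551), and neither passed the threshold. Without cell line 1 the difference from kidney was -3.88 and passed (adjusted p = 0.000151), as it did without the second kidney (-3.18, adjusted p = 0.00755), and without cell line 2 the difference from lymph node was 0.73 (adjusted p = 0.517). In those comparisons 9.09% and 6.68% of probe sets were called in either direction. On 1602868_at the lines differed from each other by only 0.09 and from the tumors by -0.00 ± 0.21 (adjusted p = 0.997), so that the gap between the lines rests on 1 probe set.

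Of the other ABC genes, ABCG2, the breast cancer resistance protein, which also exports anticancer drugs, had a gap between the lines of comparable size in the opposite direction. It had a level of 4.26 in cell line 1 and 7.42 in cell line 2, a gap reached by 0.252% of all probe sets. Of the 19 genes 3 differed by more than 1 between the lines, ABCG2, the peroxisomal transporter ABCD3 (-1.18 for line 1 minus line 2) and ABCA1 (1.11). A gap as large as that of ABCA1, the smallest of the 3, was reached by 5.76% of all probe sets. With 1 sample of each line, the differences between lines have no replicate check and no test. ABCG2 had 4.53 to 6.73 in the tumors (median 5.75), 8.67 and 8.78 in the livers, 4.76 and 5.21 in the lymph nodes, and 4.41 and 5.28 in the kidneys. Its tumor levels overlapped those of lymph node and kidney, unlike those of ABCB1.

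**Figure D2:**
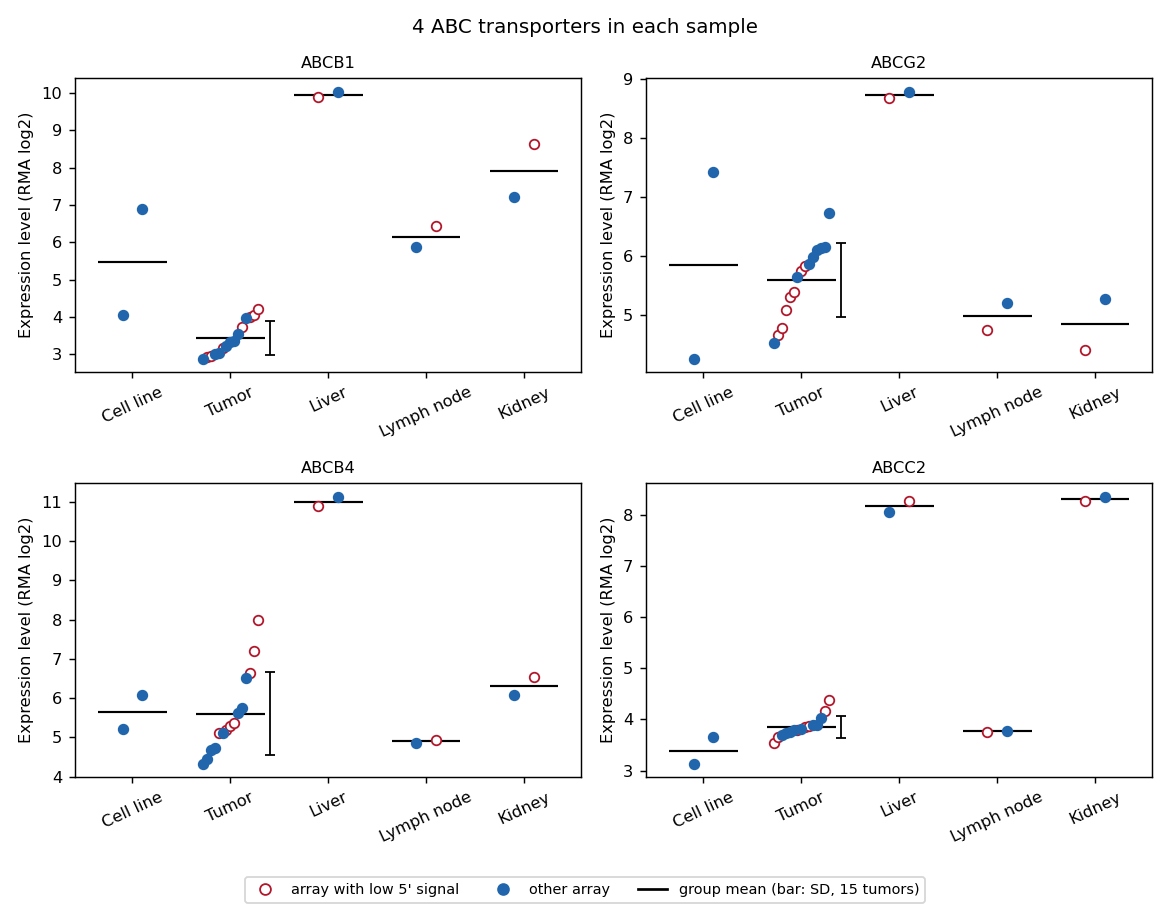
Expression level (RMA log2, vertical axes, each with its own range) of ABCB1, ABCG2, ABCB4 and ABCC2 in each of the 23 samples by group; open circles are arrays with low 5′ signal, lines are group means and the bar is the SD over 15 tumors. ABCB1 is higher in 1 cell line (6.88 against 4.04) and ABCG2 in the other (7.42 against 4.26), and only ABCB1 separates the tumors from both lymph nodes.

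Among ABC genes the low level in tumors against all 3 organs was shared by none of the 19 others on their brightest probe set. Against lymph node 2.91% of all probe sets were called lower, so that a count of 0 of 19 does not set these genes apart. The call of ABCB1 against lymph node was itself lost when either lymph node was left out. Against the 6 organ samples 1 of 19 was called lower and 0 higher, with a median difference of -0.24, beside -0.02 for all probe sets, of which 5.95% were called in either direction. That gene was ABCC2 (MRP2, which exports conjugated drugs and bile pigments into bile), at -2.89 ± 0.56 (adjusted p = 0.00154). Its levels were 3.53 to 4.39 in the tumors, 8.28 and 8.07 in the livers, 3.75 and 3.78 in the lymph nodes, and 8.27 and 8.36 in the kidneys, so that the tumors were as low as the lymph nodes. The dimmer probe sets of ABCC2 were not called against the 6 organ samples. Tumor and organ means were 3.69 and 3.72 on 1582951_at, 3.89 and 5.16 on 1582952_at, and 3.76 and 5.39 on 1596695_at. ABCC11, a transporter of lipophilic anions, was not called on its brightest probe set (-0.24 ± 0.14, adjusted p = 0.272), but on 1583708_s_at it was lower in tumors by -3.55 ± 0.68 (adjusted p = 0.00143), with 8.77 and 9.26 in the kidneys and 3.32 and 3.33 in the lymph nodes.

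Against liver 7 of the 19 others were lower in the tumors and 0 higher (median difference -0.87), where 9.28% of all probe sets were called in either direction. They held the 4 measured genes of canalicular bile export, ABCB4 (-5.41 ± 0.68), ABCG8 (-4.78 ± 0.15), ABCC2 (-4.32 ± 0.16) and ABCB11 (-2.17 ± 0.13), of which ABCB4 moves phosphatidylcholine, ABCG8 sterols and ABCB11 bile salts. The remaining 3 were ABCA6 (-3.15 ± 0.49), ABCG2 (-3.13 ± 0.56) and ABCD4 (-1.59 ± 0.35), a lysosomal protein of vitamin B12 transport in humans. Against kidney 2 of 19 were lower, ABCC2 (-4.46 ± 0.16) and ABCA5 (-1.87 ± 0.45), and 0 were higher, with 7.26% of all probe sets called. On its probe set 1583708_s_at ABCC11 was also called lower against liver and kidney. Its means there were 3.28 in the tumors, 8.15 in liver and 9.02 in kidney. Against lymph node 0 of 19 passed in limma, with a median difference of 0.06 and 4.24% of all probe sets called, whereas ABCB1 was lower by -2.73.

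**Figure D3:**
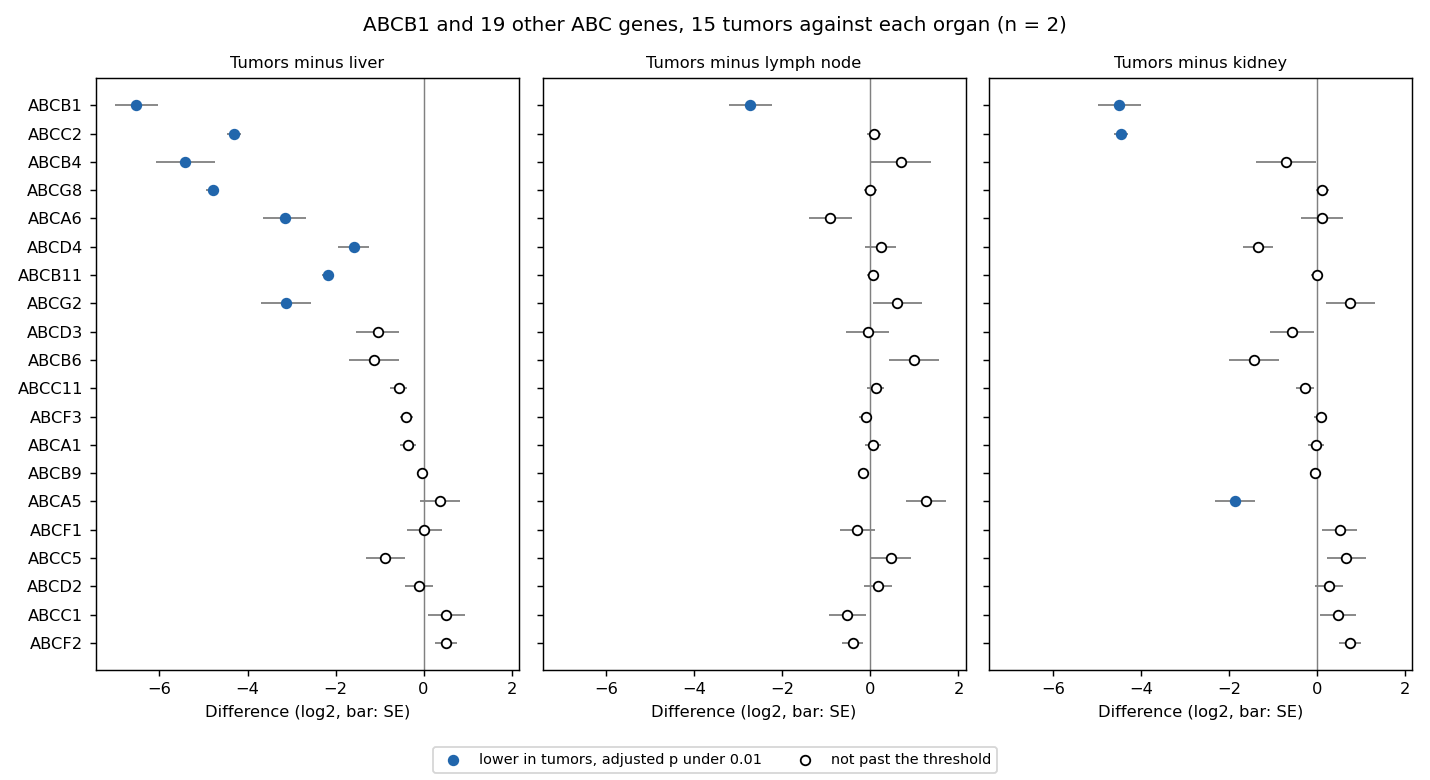
Difference in level (log2, horizontal axis, bars are SE) between the 15 tumors and each organ (n = 2) for ABCB1 and 19 other ABC genes, 1 probe set each; filled points were lower in the tumors at an adjusted p under 0.01. ABCB1, in the top row, is filled in all 3 panels, at -6.53 for liver, -2.73 for lymph node and -4.49 for kidney, and no other gene is. Of all probe sets 2.91% were called lower against lymph node.

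The other drug efflux transporters (4 of 7 listed measured) had 0 genes called on their brightest probe sets between the tumors and the 6 organ samples, beside 5.95% of all probe sets, so that the count itself does not set them apart. ABCC11 was called on its other probe set, as given above. On the brightest probe sets their differences were 0.15 ± 0.29 for ABCC1 (MRP1), 0.09 ± 0.33 for ABCC5 (MRP5), -0.24 ± 0.14 for ABCC11 and -0.59 ± 0.54 for ABCG2. The interval of ABCG2 ran from -1.70 to 0.53, and that of ABCC1 from -0.46 to 0.76, beside -5.54 to -3.63 for ABCB1. These intervals come from the fit that took the organ samples as independent. ABCC1 had 4.64 to 6.68 in the tumors and 4.63 to 6.01 in the organ samples. The cell lines differed from the tumors by 0 of these 4 genes at the threshold, and over all 19 ABC genes only ABCA1, which exports cholesterol, was called, at -0.80 ± 0.19 (adjusted p = 0.00679). Cell line 1 (5.55) lay inside its tumor range of 5.43 to 6.06 and cell line 2 (4.43) below it, in a comparison where 6.27% of all probe sets were called in either direction.

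ABCB4 is the gene next to ABCB1 in the dog RefSeq gene order and its closest relative in the family. It had 6.08 and 5.22 in the cell lines and 4.33 to 7.99 in the tumors, against 10.88 and 11.13 in the livers, 4.95 and 4.86 in the lymph nodes and 6.54 and 6.07 in the kidneys. Both genes had their highest level in liver, but the tumors overlapped kidney and lymph node for ABCB4 and not for ABCB1. Tumor 10 had the highest level of both. The annotation named 4 of the 8 nearest genes on either side (CROT, ABCB4, SLC25A40 and ADAM22), of which 0 were called between the tumors and the 6 organ samples, beside 5.95% of all probe sets, which does not set them apart. ABCB4 was called against liver, where 9.28% of all probe sets were, and the other 3 were called against no single organ. Whether probes of one gene also bind transcripts of the other could not be examined, since the probe sequences were not used here.

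Genes that regulate or work beside drug efflux were taken from a list of 25, of which 11 were measured. The drug-sensing receptors NR1I2 and NR1I3 were not among the measured ones. UGT1A6, which conjugates drugs with glucuronic acid, was lower in the tumors than in the 6 organ samples by -4.58 ± 0.86 (adjusted p = 0.00129), which made 1 call of 11 beside 5.95% of all probe sets. It had means of 3.77 in the tumors, 11.7 in liver, 4.04 in lymph node and 9.30 in kidney. Against liver 4 of 11 were lower, beside 5.86% of all probe sets: UGT1A6 (-7.93 ± 0.36), CYP3A12, a drug-oxidizing enzyme (-4.24 ± 0.15), and the uptake transporters SLCO1B3 (-3.01 ± 0.57) and SLCO1A2 (-1.14 ± 0.21). EZR, encoding ezrin, which links membrane proteins to actin, was higher in the tumors than in liver by 2.38 ± 0.37 (adjusted p = 7.89e-05), as were 3.42% of all probe sets. Against kidney UGT1A6 (-5.53 ± 0.36) and the cation transporter SLC22A2 (-1.89 ± 0.40) were lower, beside 5.26% of all probe sets. Against lymph node 0 of 11 passed, beside 4.24% of all probe sets.

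The 10 probe sets whose pattern over the 23 samples was most like that of 1582410_at had Pearson r of 0.902 to 0.948. They were those of the epithelial keratin KRT18, the bile acid receptor NR1H4 and the complement component C2 (0.948 each), the motor protein MYO5B (0.933), the glycerate kinase GLYCTK (0.919), prekallikrein KLKB1 (0.909), the retinol dehydrogenase RDH16 and the steroid dehydrogenase HSD17B14 (0.908 each), and SYCE2 and the mitochondrial enzyme GCDH (0.902 each). NR1H4 had mean levels of 6.34 in the cell lines, 3.95 in the tumors, 10.4 in liver, 4.75 in lymph node and 8.79 in kidney, and like ABCB1 it was higher in cell line 1 (7.68) than in cell line 2. Only C2 and SYCE2 were also among the 10 highest by Spearman's rho. Over the 17 tumors and cell lines, without the organs, r was 0.883 for RDH16, 0.875 for NR1H4, 0.837 for MYO5B and 0.78 for GLYCTK. It was 0.64 for KRT18 and for C2, 0.576 for SYCE2, 0.362 for GCDH, 0.239 for HSD17B14 and -0.01 for KLKB1. Cell line 1 had the highest level among these 17 samples for ABCB1, RDH16, NR1H4, MYO5B and GLYCTK. It was also the highest for KRT18 (7.36, highest tumor 6.34), C2 (7.22, highest tumor 7.21) and HSD17B14 (6.93, highest tumor 6.88), whose r was lower. For RDH16, NR1H4, MYO5B and GLYCTK r over the tumors alone was 0.209, -0.061, 0.297 and 0.237. Over the 15 tumors alone the r of these 10 probe sets with ABCB1 ran from -0.327 to 0.628. Among the other ABC probe sets the highest r over 23 samples were 0.827 for ABCC2 and 0.825 for ABCC11 1583708_s_at.

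**Figure D4:**
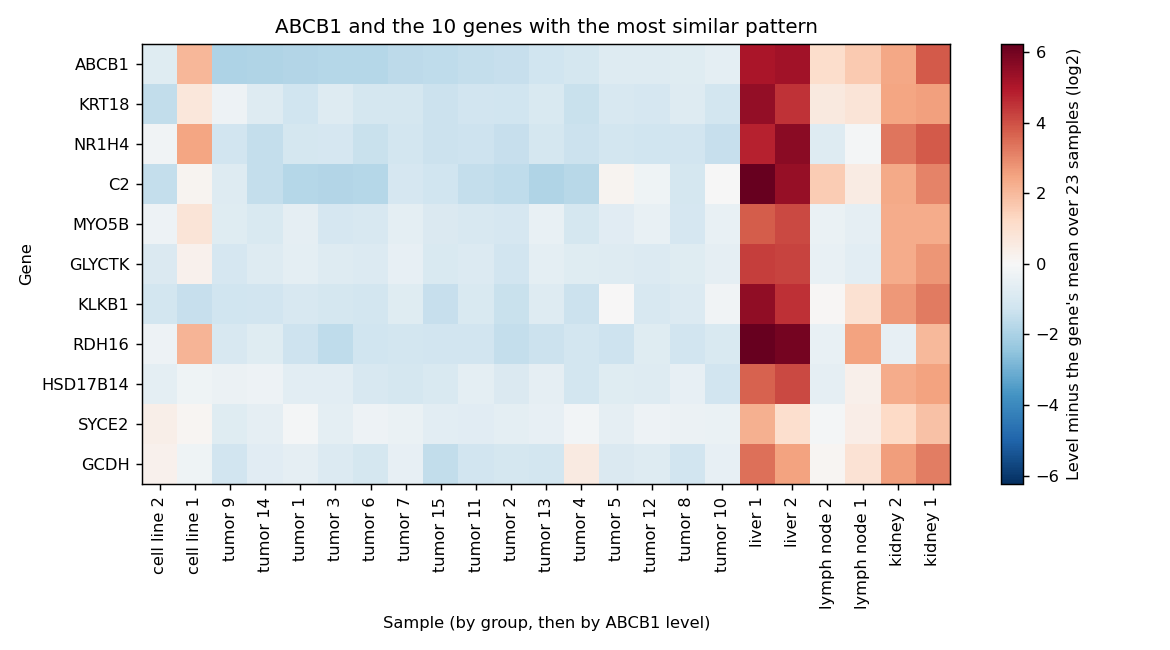
Level minus each gene's mean over 23 samples (log2, colour) for ABCB1 and the 10 genes with the highest Pearson r to it, in samples ordered by group and by ABCB1 level. The livers and then the kidneys are highest in most rows. Cell line 1 is above the gene's mean in most rows, ABCB1 and NR1H4 among them, and below it for KLKB1, HSD17B14 and GCDH.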

How the data were processed

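The authors prepared RNA from each sample by a one-cycle labelling protocol, hybridized all arrays at one facility as a single group, and summarized the probe intensities with the affy package by RMA, which corrects background, equalizes the distributions of the arrays and combines the probes of a set. The deposited values are these log2 levels, used as deposited, for 23913 probe sets, of which 77 controls were left out. No source used here names their software versions. An array has no read depth, so the number of arrays limits the precision.

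Genes were named from the platform annotation where it gave 1 symbol (10549 probe sets, 6540 genes), and each ABC gene other than ABCB1 was read from its brightest probe set on average over the 23 samples. Comparisons were made by two-sided tests of limma 3.58.1 under R 4.3.3, with eBayes after lmFit and Benjamini-Hochberg adjustment, over 23836 probe sets with a threshold of 0.01, with the pooled organs in a fit of 2 groups and all other contrasts in a fit of 5 groups that share 1 estimate of the spread. The scripts were tested on simulated data. Named were both ABCB1 probe sets, ABC genes and list members that passed against the organs, members of an ABC role where they matter for it, and the 10 probe sets most correlated with 1582410_at. Marker genes entered only as means of their lists. The neighbouring genes in RefSeq order, the gaps between the cell lines and ABCC11's second probe set were added after values had been seen. ABCB1, the lists and the tests were chosen with earlier results of these data known.

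Same-numbered samples of different organs deviated together from their organ means (r = 0.607 for liver and kidney, 0.596 for lymph node and kidney and 0.53 for liver and lymph node, over all probe sets). The replicate number was therefore tried as a block, although the labels do not say what it marks and the first sample of each organ is also the one with low 5′ signal.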

Additional observations from a re-analysis of the deposited data

Results flagged for a closer look

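The deficit of ABCB1 in the tumors differed in size between the organs it was set against. On 1582410_at the tumors were lower than liver by -6.53 and lower than lymph node by -2.73, and the difference between these contrasts, which equals liver minus lymph node, was 3.80 ± 0.64 (limma, adjusted p = 0.000293), with both livers above both lymph nodes. The corresponding values were 2.03 for liver minus kidney and -1.77 for lymph node minus kidney, neither past the threshold. Hepatocyte markers averaged 9.55 to 10.1 in the livers and 4.56 to 4.87 in the lymph nodes. Their part in the difference was not tested.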

How the results depend on the processing

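ABCB1 on 1582410_at stayed lower in the tumors than in the 6 organ samples, past the threshold, in 9 of 9 alternatives (-4.74 to -4.41) and 21 of 21 fits without 1 sample (-5.01 to -4.18). With the replicate number as a block it differed by -6.53 from liver, -2.73 from lymph node (adjusted p = 0.000796) and -4.49 from kidney, and the block changed no call of either probe set. Over all contrasts 312 of 340 fits of 1582410_at and 311 of 340 of 1602868_at kept direction and side of the threshold. Most of these fits only left out 1 sample, and an uncalled difference that stayed uncalled counted as kept. The direction turned in 1 fit of 1582410_at and in 12 of 1602868_at, so the totals do not make the probe sets equally stable.

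The cause of the changes below was not tested. On arrays with low 5′ signal alone, tumor minus lymph node was -2.85 and liver minus lymph node 3.45, and on the other arrays alone tumor minus kidney was -3.91, tumor minus lymph node -2.58, cell line minus tumor 2.17 and liver minus lymph node 4.15, all short of the threshold in fits with 1 sample of each organ, assumed to vary like the other groups. Fits on 2 groups only lost cell line minus tumor (2.03, adjusted p = 0.0105) and cell line minus liver (-4.49, adjusted p = 0.0529), and an exact permutation test gave p = 0.0221 for cell line minus tumor. At a threshold of 0.05 cell line minus kidney (-2.46) passed. Without 1 sample, tumor minus lymph node ran from -3.00 to -2.45, cell line minus tumor from 0.61 to 3.46, cell line minus kidney from -3.88 to -1.04 and cell line minus lymph node from -2.11 to 0.73. Cell line minus tumor kept its call in 10 of 23 such fits. Of the 19 ABC genes, 0 were called against the pooled organs on either set of arrays alone, and 2 at 0.05 (ABCC2 and ABCD4). The share of all probe sets called in these fits is not given here, so these counts do not set the ABC genes apart. With the median over probe sets, ABCC11 (-2.56, adjusted p = 7e-04) was called and ABCC2 (-1.45, adjusted p = 0.0347) was not.

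On 1602868_at, uncalled differences turned in sign. Cell line minus tumor was 0.0022 on the other arrays alone, 0.11 with arrays centred on their medians, and -0.047 to 0.043 without 1 sample. Liver minus kidney was -0.33 on arrays with low 5′ signal, and lymph node minus kidney was 0.069 on the others and -0.51 to 0.24 without 1 sample. The tumors' difference from the 6 organ samples kept its call in 6 of 9 alternatives. With organ as a random block this difference was not called (adjusted p = 0.0192).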
